A study of Nothobranchius furzeri with 12 samples.

Results

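The gene ar encodes the androgen receptor, the protein through which testosterone and the fish androgen 11-ketotestosterone act on target cells. It was taken as the single entry XM_015961047 of the deposited expression table, 1 of 20788 entries, and was chosen by its identifier and not by any measured value. It was also 1 of the 15170 entries that passed the filter on low values (a mean of at least 10 normalized counts). A reference annotation of the species, the RefSeq table for assembly NfurGRZ-RIMD1, pairs this identifier with the symbol ar. That table lists 1 gene named ar, 1 transcript of it, and 0 other genes that overlap it. The study sequenced RNA from tail fins of Nothobranchius furzeri, the turquoise killifish, an annual fish of African seasonal ponds. Its 12 libraries form 4 groups of 3, with 2 groups per strain: MZCS002 gave red tails and female tails, and GRZ-BELL gave yellow tails and female tails. The protocols in the labels state that pigmented fin was cut out, or in females the same region, and that oligo-dT primed cDNA from 125 ng of RNA. The labels give neither an age nor a treatment, and they do not state the sex of the red-tailed and yellow-tailed fish. No allele or agent is named for any group. Tail colour goes with strain, and so does a number in the sample descriptions (1 for MZCS002 and 2 for GRZ-BELL) whose meaning is not given, so strain, colour and whatever that number stands for cannot be told apart between red and yellow. In the comparison of a coloured tail with the females of its own strain, colour and sex cannot be told apart.

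The androgen receptor is a nuclear steroid receptor. Without hormone it is held in the cytoplasm by chaperones of the Hsp90 and Hsp70 families, and once it binds an androgen it enters the nucleus, attaches to DNA and recruits coactivators or corepressors to its target genes. In fishes, androgens are known for male display traits, among them breeding colours and fin growth, and in killifishes the bright tail and body colours are typical of males.

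The libraries held 5495553 to 17053983 reads counted in the entries. The shallowest was female 2 of MZCS002, with 16400 entries that had a read against 17644 to 18667 in the other 11. Markers of fin tissue were abundant in every library: summed epidermal markers ran from 596066 to 1685390 normalized counts and summed fin ray bone markers from 56858 to 418530. Summed gonad markers, 9 of which had an entry, ran from 31.0 to 116 normalized counts. Of these 9, 2 had a mean of at least 10 and 2 others, foxl2a and insl3, were at 0 reads in all 12 libraries.

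The androgen receptor transcript was highest in red tails, intermediate in yellow tails and lowest in the females of both strains. Red tails held 887, 1142 and 872 normalized counts of ar, and MZCS002 females held 294, 591 and 428. Every red tail lay above every MZCS002 female, the lowest red tail at 872 against the highest female at 591. In GRZ-BELL, yellow tails held 583, 782 and 507.1, and females held 290, 415 and 460. The groups of this strain did not overlap either, although the gap was narrow, from 460 in the highest female to 507.1 in the lowest yellow tail. Such separation in the upward direction was found for 12.7% of the entries tested in MZCS002 and for 13.1% in GRZ-BELL, and in both strains at once for 3.03%. The lowest red tail, at 872, also exceeded the highest yellow tail, at 782, a separation (in either direction) seen for 34.1% of the entries. Yellow 3 lay below female 2 of MZCS002, so ar was not among the 1.83% of entries in which all 6 coloured tails exceeded all 6 females.

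The group means were 967 ± 152 normalized counts in red tails, 437 ± 149 in MZCS002 females, 624 ± 142 in yellow tails and 388 ± 88.2 in GRZ-BELL females (SD, n = 3 each). The ratio of the means was 2.21 for red tails over MZCS002 females and 1.61 for yellow tails over GRZ-BELL females. These levels rested on 188 to 1422 reads per library. For the library with the fewest ar reads, female 2 of MZCS002, the 95% Poisson interval was 509 to 682 normalized counts, which covers counting error alone and left that library the highest of the 6 females. The RNA came from whole pieces of fin, in which fewer cells of a type and less RNA per cell cannot be told apart.

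**Figure D1:**
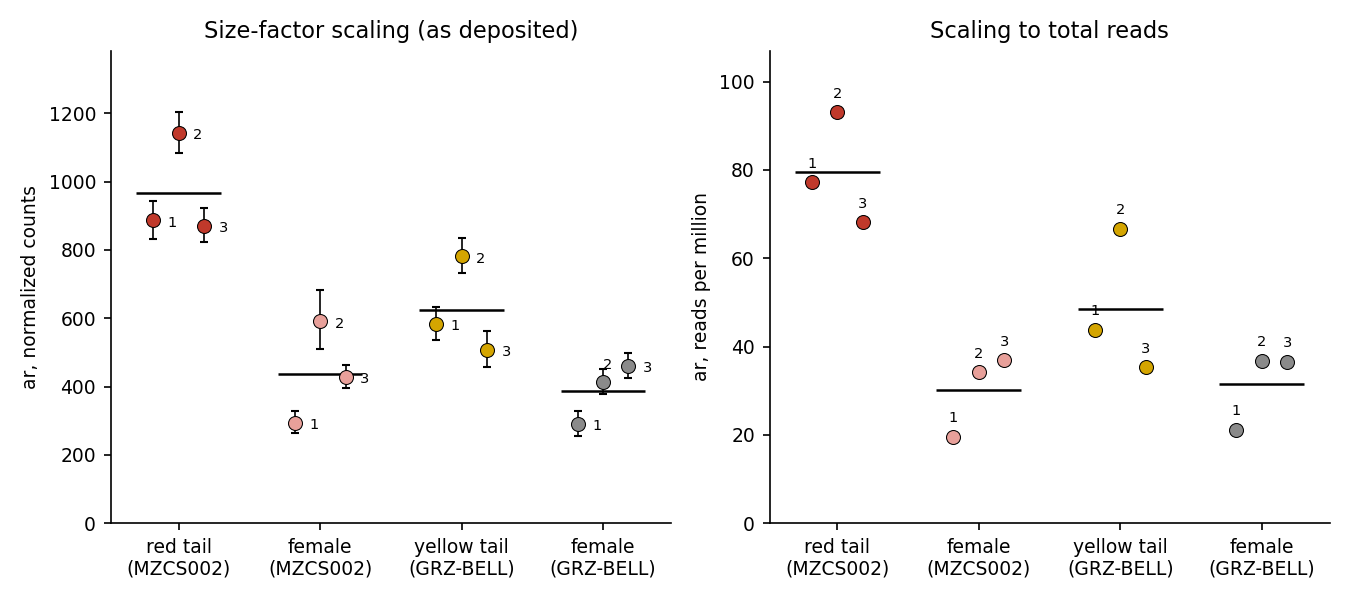
Expression of ar in each of the 12 libraries, numbered by replicate, as deposited normalized counts with 95% Poisson intervals (left) and as CPM (right). CPM are reads scaled to each library's total of reads counted in entries, and horizontal lines are group means. On the left each coloured tail lies above all females of its strain, and on the right yellow 3, at 35.3 CPM, falls within the range of the GRZ-BELL females.

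Scaling by total reads changed the order of the libraries. As CPM (reads scaled to each library's total of reads counted in entries), red tails held 77.2, 93.0 and 68.1. On that scale MZCS002 females held 19.6, 34.2 and 36.9. Yellow tails held 43.8, 66.7 and 35.3, and GRZ-BELL females 21.2, 36.8 and 36.6. On this scale yellow 3 lay below 2 of the 3 GRZ-BELL females, so the groups of GRZ-BELL overlapped, and female 2 of MZCS002 was no longer the highest female. Red tails stayed above all other libraries on both scales.

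The tests set these differences against the spread between libraries. A gene is called here at a Benjamini-Hochberg adjusted p under 0.05 from limma, fitted over all tested entries, and differences are on the scale of log2(normalized count + 1). Averaged over the strains, ar was higher in coloured tails than in females by 0.94 ± 0.21 (SE; 95% interval 0.49 to 1.39; limma adjusted p = 0.0250), a 1.91-fold difference. In that comparison 3.85% of the entries were called, 2.72% as higher and 1.13% as lower, and ar ranked 368 by p. An exact two-sided permutation test that exchanged labels within each strain gave p = 0.005, the smallest that its 400 arrangements can give. The direction was the same in both strains.

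Within MZCS002, red tails exceeded females by 1.19 ± 0.29 (95% interval 0.55 to 1.82; limma adjusted p = 0.0407), where 4.53% of the entries were called, 2.71% as higher and 1.82% as lower. Within GRZ-BELL, the difference of yellow tails from females was 0.69 ± 0.29 (95% interval 0.050 to 1.32; limma adjusted p = 0.355), which did not pass, where 1.84% of the entries were called, 1.49% as higher and 0.349% as lower. With 3 libraries against 3, an exact permutation test cannot go below 0.1 in 1 strain, and it gave p = 0.1 in each. That the call was reached in 1 strain alone does not show that the strains differ. The difference between the strains' effects was 0.50 ± 0.41 (95% interval -0.39 to 1.40, limma adjusted p = 0.602), a test in which 0.178% of the entries were called. An effect of equal size in both strains lies inside this interval, which reaches from -0.39, larger in GRZ-BELL, to 1.40, larger in MZCS002.

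Between the strains, the difference of red from yellow tails was 0.64 ± 0.29 (95% interval 0.0085 to 1.28; limma adjusted p = 0.196), and it did not pass, where 7.43% of the entries were called. The 2 female groups could not be separated: MZCS002 females differed from GRZ-BELL females by 0.14 ± 0.29 (95% interval -0.49 to 0.78; limma adjusted p = 0.842; 1.74% of the entries called), their ranges overlapped, and the sign turned when female 2 of MZCS002 (-0.105) or female 1 of GRZ-BELL (-0.056) was left out. In the order of levels, red, yellow, MZCS002 female, GRZ-BELL female, no tested pair of neighbours therefore differed past the threshold, and yellow tails (507.1 to 782) overlapped MZCS002 females (294 to 591), a pair that differs in both strain and colour and was not tested.

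The calls stood close to the threshold. With each library left out in turn, the average difference ran from 0.81 to 1.06 and the limma adjusted p from 0.0048 to 0.0802. The call was lost without red 2, yellow 1, yellow 2, female 1 of GRZ-BELL or female 2 of GRZ-BELL. The exact permutation p in those fits was 0.005 or 0.01. The MZCS002 difference ran from 0.93 to 1.43 and its limma adjusted p from 0.0115 to 0.173, and its call held in 3 of 12 such fits, those without female 2 of MZCS002, yellow 2 or female 1 of GRZ-BELL. Without the shallow female 2 of MZCS002 it was larger, at 1.43 (limma adjusted p = 0.0115). A fit of the MZCS002 libraries alone gave the same 1.19 with a limma adjusted p of 0.184. The within-group spread of ar was an SD of 0.36 on the log2 scale, against a median of 0.46 over all tested entries.

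**Figure D2:**
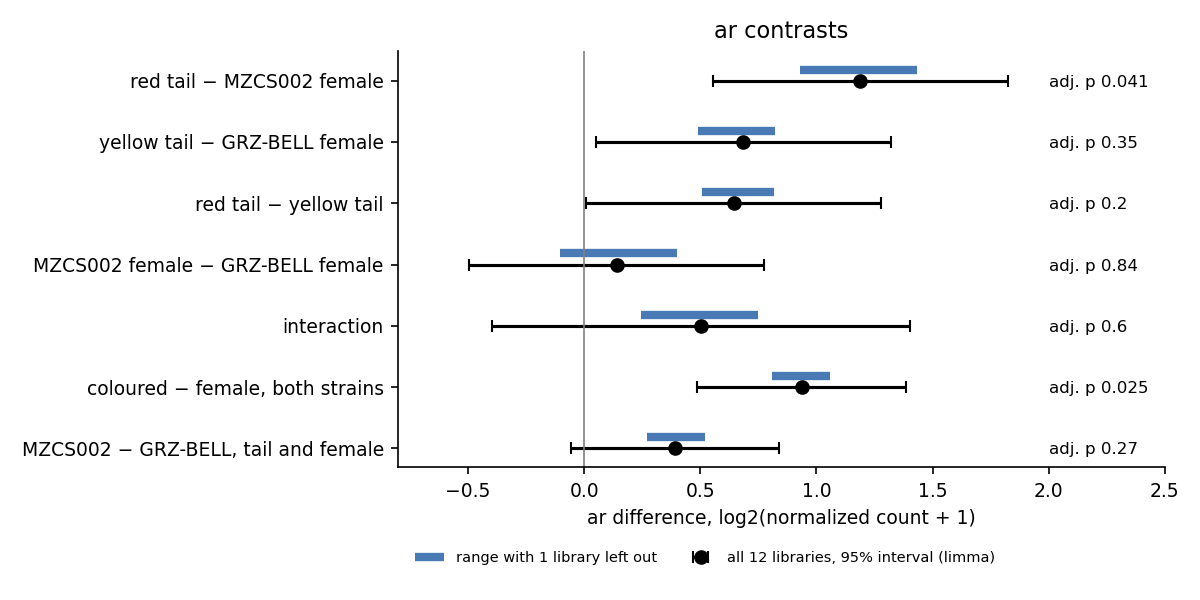
Differences in ar between groups on the log2(normalized count + 1) scale, with points for the fit of all 12 libraries, black bars for limma 95% intervals and blue bars for the range with 1 library left out. The average over strains (0.94) and the MZCS002 difference (1.19) carry adjusted p-values under 0.05, while the interaction interval, -0.39 to 1.40, spans 0.

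The genes that supply the ligand, hold the receptor and carry out its transcription were called about as often as entries in general. Of 257 symbols in 6 lists of androgen pathway genes without ar, 146 matched an entry and 127 were tested. Red tails had 4 called higher than MZCS002 females and 3 lower (5.51% of the members, against 4.53% of all entries). Yellow tails had 3 called higher than GRZ-BELL females and 0 lower (2.36% against 1.84%). Averaged over the strains 5 were called higher and 0 lower (3.94% against 3.85%). These shares lie near the background, and the median difference of the members was -0.065 in MZCS002 and -0.012 in GRZ-BELL, beside 0.014 and -0.025 for all entries.

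Of 12 symbols on the receptor list, 7 matched an entry. The symbols nr3c1, nr3c2 and esr1, of other steroid receptors, had no match and were not looked for under other names. Among the receptors that matched, 5 entries were tested. Of all entries, 4.53% were called in MZCS002, 1.84% in GRZ-BELL and 3.85% on average. In MZCS002 (limma adjusted p = 0.0407, close to the threshold) and on average, ar was the one called. Passing the threshold does not by itself set ar apart from the rest. Its companions were pgrmc1, a heme-binding membrane protein first described with progesterone binding; slc39a9, a zinc transporter described as a membrane androgen receptor in other fishes; esr2a, an estrogen receptor beta; and pgr, the nuclear progesterone receptor. The membrane component pgrmc1 held 2104, 1549 and 1102 normalized counts in red tails, 789, 937 and 776 in MZCS002 females, 1064, 887 and 1120 in yellow tails and 944, 845 and 855 in GRZ-BELL females. Red tails lay above their females without overlap, yellow tails did not, and the differences of 0.88 ± 0.24 (limma adjusted p = 0.0601) and 0.21 ± 0.24 (adjusted p = 0.817) did not pass. The transporter slc39a9 differed by 0.36 ± 0.21 and 0.29 ± 0.21 in the same order, neither of them called. The means of esr2a in the coloured groups, 60.0 in red and 61.8 in yellow, were below those of 84.8 and 79.4 in the matching females, with limma adjusted p-values of 0.428 and 0.816. The progesterone receptor pgr held means from 31.6 to 62.6 in the 4 groups, and yellow 3 alone held 120 where yellow 1 and yellow 2 held 22.1 and 24.3. Below the filter were the second estrogen receptor beta, esr2b, with group means of 5.22 to 14.9, and the membrane estrogen receptor gper1, with 1 read in all 12 libraries.

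In ligand synthesis and conversion, 17 of 24 matched genes were tested, and 1 of them, called in MZCS002 and in the average over strains, was hsd3b1, the 3-beta-hydroxysteroid dehydrogenase that turns pregnenolone into progesterone and dehydroepiandrosterone into androstenedione. It held 863, 1393 and 679 normalized counts in red tails against 27.9, 31.4 and 63.9 in MZCS002 females. It held 174, 303 and 86.6 in yellow tails against 90.4, 25.8 and 14.9 in GRZ-BELL females. Every red tail stood above every other library, whereas yellow 3 fell just below female 1 of GRZ-BELL. The difference was 4.57 ± 0.61 in MZCS002 (limma adjusted p = 0.0012) and 3.44 ± 0.43 on average (adjusted p = 4.21e-04), and both calls held in all 12 fits with a library left out. In GRZ-BELL it was 2.30 ± 0.61 (limma adjusted p = 0.0972) and did not pass, and the difference between the strains' effects, 2.27 ± 0.87 (adjusted p = 0.254), did not pass either. Red tails exceeded yellow tails in hsd3b1 by 2.49 ± 0.61 (limma adjusted p = 0.0298), a call lost without red 1, red 2, yellow 1 or yellow 3 (adjusted p up to 0.128).

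Of the other genes of this list, none was called in a comparison of coloured tails with females, and 7 had a mean under 10. The shares of all entries called were 4.53% in MZCS002, 1.84% in GRZ-BELL and 3.85% on average. The cholesterol carrier star had 14 reads over all 12 libraries, the steroid hydroxylase gene cyp17a2 had 5 and the ovarian aromatase cyp19a1a had 3. The other 4 under 10 were cyp11a1.2, hsd17b1, cyp11c1 and nr5a1b. Of the converting enzymes, hsd11b2, which in fishes completes 11-ketotestosterone, had means of 140 in red tails, 91.9 in MZCS002 females, 214 in yellow tails and 124 in GRZ-BELL females, and its average difference of 1.08 ± 0.53 did not pass (limma adjusted p = 0.282). Female 2 of MZCS002, the shallowest library, held 9.43, which was 3 reads, where the other 2 females of that strain held 133 each. The testosterone-forming hsd17b3 had means of 13.9 and 36.8 in red tails and their females and 25.7 and 40.1 in yellow tails and theirs (average limma adjusted p = 0.266). The gene srd5a3, named for steroid 5-alpha-reductase and known in mammals for dolichol synthesis, was higher in red than in yellow tails by 1.53 ± 0.32 (limma adjusted p = 0.0137; up to 0.0767, and not called, without red 1, red 2 or yellow 1), and its red-female difference of 1.11 ± 0.32 did not pass (adjusted p = 0.0680). Averaged over tails and females, srd5a3 was also called higher in MZCS002 than in GRZ-BELL (0.87, limma adjusted p = 0.0333), where 7.86% of the entries were called. These enzymes, hsd3b1 apart, were chosen for mention after their values were seen. The conjugation list had 2 tested members, the sulfate donor transporter slc35b2 and the sulfatase-modifying sumf1. Their average differences were 0.29 ± 0.20 and 0.22 ± 0.15, neither called.

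Receptor chaperones, 23 genes tested, had 2 members called higher in yellow tails and 2 other members called lower in red tails. Of all entries, 1.49% were called higher in yellow tails and 1.82% lower in red tails. The 2 called higher in yellow tails were hsp90aa1.2, an Hsp90 alpha chaperone, and hspa4l, a nucleotide exchange factor of the Hsp110 family. In yellow tails hsp90aa1.2 held 1696, 2824 and 1586 normalized counts against 345, 291 and 275 in GRZ-BELL females. In red tails it held 838, 862 and 1279 against 358, 823 and 492 in MZCS002 females. Each coloured tail lay above the females of its strain, narrowly in MZCS002, where female 2 (823) came close to red 1 (838). The difference was 2.70 ± 0.33 in GRZ-BELL (limma adjusted p = 5.11e-04) and 0.89 ± 0.33 in MZCS002 (adjusted p = 0.133), and the difference between these effects did not pass (limma adjusted p = 0.137). The call in GRZ-BELL held with each library left out. The low transcript hspa4l held 46.2, 82.5 and 70.1 in yellow tails against 11.7, 8.33 and 7.04 in GRZ-BELL females, a difference of 2.73 ± 0.54 (limma adjusted p = 0.0201), and 26.7, 19.3 and 27.1 in red tails against 17.1, 3.14 and 11.6 in MZCS002 females. Its GRZ-BELL call was lost without yellow 2, yellow 3, female 2 or female 3 of GRZ-BELL (limma adjusted p up to 0.115), and its averaged call, at 2.04 ± 0.38, held in all 12 such fits.

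The 2 chaperones called lower in red tails were hsp90ab1, the constitutive Hsp90 beta, and hspa8, the constitutive Hsp70. Red tails held 18445, 22022 and 32642 normalized counts of hsp90ab1, and MZCS002 females held 59203, 171828 and 73052. Yellow tails held 80504 to 87016 and GRZ-BELL females 72427 to 134852, which overlapped. The MZCS002 difference was -1.94 ± 0.46 (limma adjusted p = 0.0372), and this call held in 4 of 12 fits with a library left out, those without red 3, female 1 of MZCS002, yellow 3 or female 3 of GRZ-BELL; the highest adjusted p was 0.155. For hspa8, red tails held 42146, 46252 and 54090 against 137457, 108951 and 107454 in MZCS002 females. Its difference was -1.31 ± 0.34 (limma adjusted p = 0.0477) and held without red 3 or female 2 of MZCS002 alone, with an adjusted p of up to 0.182 otherwise. The median over the 23 chaperones was 0.14 in MZCS002 and 0.36 in GRZ-BELL, with 15 and 20 members above 0. The medians over all entries were 0.014 and -0.025.

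Among 40 coregulators tested, 2 were called higher and 1 lower in red tails than in MZCS002 females, and 1 higher in yellow tails than in GRZ-BELL females. Of all entries, 2.71% and 1.82% were called higher and lower in red tails, and 1.49% higher in yellow tails. The gene fhl2a, whose mammalian counterpart is a LIM-domain coactivator of the androgen receptor, held 452, 1183 and 1382 normalized counts in red tails and 2673, 5964 and 1964 in yellow tails. It held 1.80, 3.14 and 5.44 in MZCS002 females and 14.1, 0.833 and 0.782 in GRZ-BELL females, which were 11 and 14 reads in all. Its differences were 7.75 ± 0.75 and 9.75 ± 0.75 (limma adjusted p = 8.17e-05 and 2.68e-05), the largest among the pathway genes tested, and fhl2a is also on the list of iridophore markers used here. The arginine methyltransferase prmt1, a coactivator of nuclear receptors, held 7763, 9116 and 6731 in red tails against 3310, 2794 and 2241 in MZCS002 females, a difference of 1.51 ± 0.26 (limma adjusted p = 0.0076) that was lost without red 2 (adjusted p = 0.0532). In GRZ-BELL it differed by -0.20 ± 0.26 (limma adjusted p = 0.843), and the difference between the strains' effects, 1.71 ± 0.37, did not pass (adjusted p = 0.0954). The steroid receptor coactivator ncoa1 held 37.9, 44.2 and 37.7 in red tails against 73.7, 192 and 156 in MZCS002 females, a difference of -1.68 ± 0.39 (limma adjusted p = 0.0308). That call was lost in 6 of 12 fits, those without red 1, red 2, red 3, female 3 of MZCS002, yellow 1 or female 2 of GRZ-BELL, with an adjusted p of up to 0.102. Of the 40 coregulators, 8 lay above 0 in MZCS002 (median -0.38, beside 0.014 for all entries) and 21 in GRZ-BELL (median 0.0065, beside -0.025).

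Of 41 tested genes that respond to androgen in other vertebrates, 1 was called between coloured tails and females: eaf2, an elongation factor partner induced by androgen in the mammalian prostate. It held 675, 675 and 567 normalized counts in red tails, 358, 255 and 285 in MZCS002 females, 465, 702.5 and 505.7 in yellow tails and 336, 351 and 323 in GRZ-BELL females. Coloured tails lay above all 6 females in both strains. The average difference was 0.90 ± 0.16 (limma adjusted p = 0.0065) and held in all 12 fits with a library left out. The MZCS002 difference was 1.101 ± 0.23 (limma adjusted p = 0.0195) and was lost without red 1, red 2 or female 3 of MZCS002 (adjusted p up to 0.0991). The median of the 41 genes was -0.0020 in MZCS002 and -0.21 in GRZ-BELL, beside 0.014 and -0.025 for all entries. Of all entries, 2.71% were called higher in MZCS002 and 2.72% on average.

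Between the 2 female groups 0 members of the 6 lists were called, against 1.74% of all entries. Between red and yellow tails, 4 members were called higher in red and 4 lower (6.3%, against 7.43% of all entries, 3.85% as higher and 3.58% as lower). The higher ones were hsd3b1, srd5a3, prmt1 (1.29 ± 0.26, limma adjusted p = 0.0122) and, of the androgen-responsive list, msx1a, a homeobox factor of growing fins (1.01 ± 0.26, adjusted p = 0.0378). The lower ones were hsp90ab1 (-1.83 ± 0.46, limma adjusted p = 0.0336) and, of the androgen-responsive list, mafba, a bZIP transcription factor, per1b, a circadian clock repressor, and scap, the escort protein of sterol-regulated transcription factors. The factor mafba held 58.5, 152 and 137 normalized counts in red tails and 512, 329 and 401 in yellow tails (-1.92 ± 0.38, limma adjusted p = 0.0117). The clock gene per1b held 17.2, 20.1 and 13.6 in red tails and 405, 109 and 334 in yellow tails (-3.80 ± 0.92, limma adjusted p = 0.0278), with 1 of the MZCS002 females at 530 and the other 2 at 26.1 and 34.6. For scap the difference was -1.53 ± 0.40 (limma adjusted p = 0.0378). Red and yellow tails did not overlap in msx1a, mafba, per1b or scap. These 4 were added to the named genes after their values were seen. Each of the 8 calls was lost in at least 1 fit with a library left out, in 1 such fit for mafba (without yellow 1, adjusted p = 0.0635) and in 6 for msx1a (adjusted p up to 0.143).

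**Figure D3:**
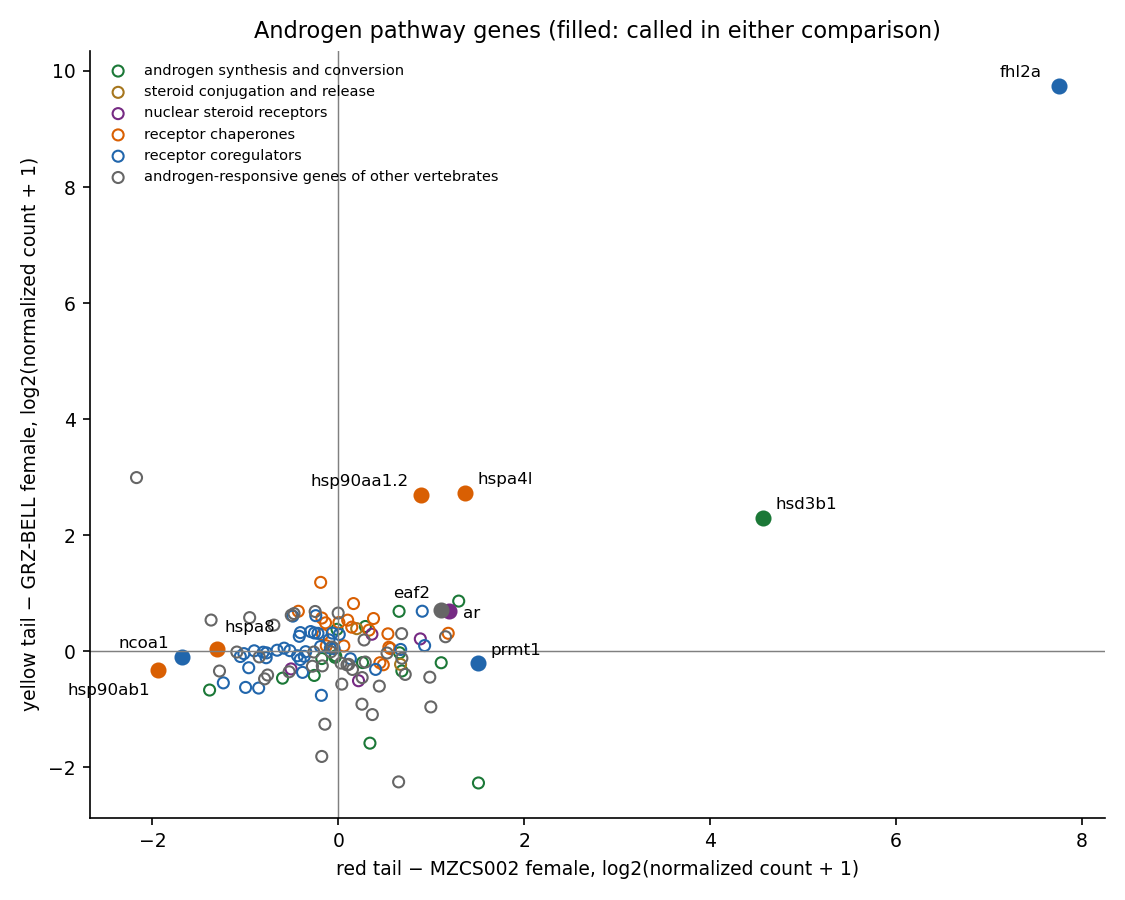
Each circle is 1 of the tested androgen pathway genes, with its red minus MZCS002 female difference across and its yellow minus GRZ-BELL female difference up, both in log2(normalized count + 1); colours mark the lists and filled circles the genes called in either comparison. Most genes lie within about 1 unit of the origin, hsd3b1 stands out to the right (4.57, 2.30), and fhl2a (7.75, 9.75) lies far from all others.

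The genes whose pattern was most like ar were ranked by the Pearson correlation of log2(normalized count + 1) over the 12 libraries, among 8700 tested entries with a symbol. The points share libraries, size factors and group differences, so the coefficients are descriptions. The median over all tested entries was -0.0097, and 9 entries exceeded 0.9. The 6 highest were clic4 (r = 0.94), an intracellular chloride channel protein; c13h19orf47 (0.93); ap3m2 (0.91), a subunit of the AP-3 adaptor that sorts cargo to lysosome-related organelles; tspan10 (0.91), a tetraspanin; atic (0.90), the enzyme of the last steps of purine synthesis; and tpd52l1 (0.89). Ranking by Spearman correlation kept 3 of the 6, as did leaving out female 2 of MZCS002. The tetraspanin tspan10 and the purine enzyme atic are also on the melanophore and iridophore lists used here.

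These genes shared the order of ar with steps of different size. The flattest was c13h19orf47, with group means of 347 in red tails, 254 in MZCS002 females, 283 in yellow tails and 234 in GRZ-BELL females, and it was not called (average difference 0.37 ± 0.15, limma adjusted p = 0.206). Next was clic4, with 988, 656, 796 and 580 (0.52 ± 0.16, adjusted p = 0.0993 by limma). The steepest was tspan10, which held 393, 637 and 397 in red tails, 13.5, 31.4 and 18.4 in MZCS002 females, 147, 270 and 125 in yellow tails and 21.1, 19.2 and 18.8 in GRZ-BELL females. Its average difference was 3.76 ± 0.27 (limma adjusted p = 3.35e-06), and red 2 and yellow 2 were the highest of their groups, as they were for ar. The opposite pattern was led by rel, an NF-kB subunit (r = -0.89), arhgef38, a guanine nucleotide exchange factor (-0.89), rhbg, an ammonia transporter (-0.88), and sipa1l3 (-0.87). The NF-kB gene rel held 28.4, 13.7 and 18.1 in red tails, 82.7, 37.7 and 98.6 in MZCS002 females, 55.2, 29.5 and 42.6 in yellow tails and 171, 164 and 150 in GRZ-BELL females, and was called lower in coloured tails on average (-1.86 ± 0.29, limma adjusted p = 0.0025). By group means alone, the closest 4 genes to ar were grwd1, a histone-binding protein of ribosome assembly; mcamb, a cell adhesion molecule; si:dkey-166k12.1; and cptp, a ceramide-1-phosphate transfer protein. They lay within a distance of 0.11 on the log2 scale.

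**Figure D4:**
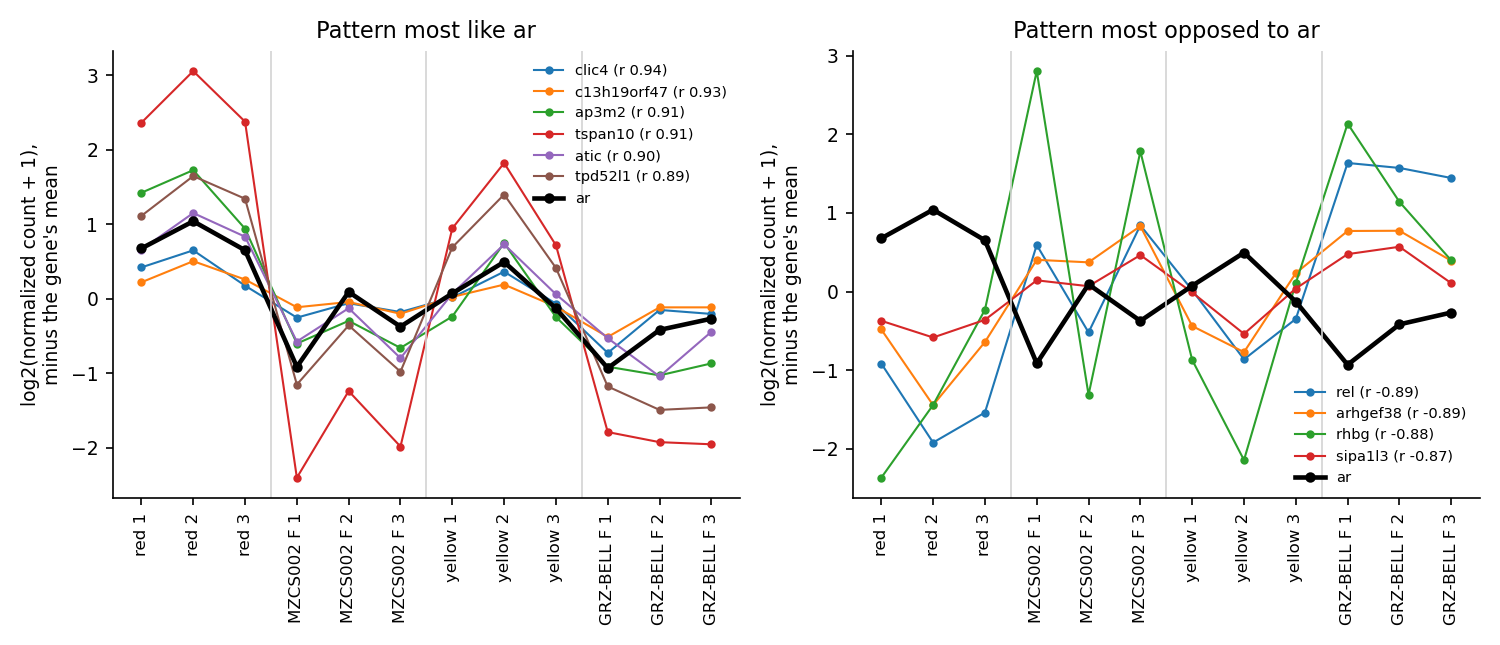
Lines give ar (black) and the 6 genes with the highest (left) or 4 with the lowest (right) correlation with it over the 12 libraries, as log2(normalized count + 1) minus the mean of each gene. Red 2 and yellow 2 are the peaks of their groups for ar and for the genes on the left, tspan10 has the widest swing, and the genes on the right run opposite.

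Of the 13 genes in a window of the RefSeq annotation that includes ar, 9 had an entry. The nearby connexin gja2, a gap junction channel subunit, held 83.5, 125 and 106 in red tails, 11.7, 15.7 and 16.99 in MZCS002 females, 16.1, 26.1 and 6.87 in yellow tails and 7.05, 15.0 and 6.25 in GRZ-BELL females. Red tails stood apart from all other libraries in gja2, with a difference of 2.74 ± 0.51 from MZCS002 females (limma adjusted p = 0.0113; 0.0717 without red 2), and yellow tails overlapped their females (0.65 ± 0.51, adjusted p = 0.680). This neighbour was chosen for mention after its values were seen. No coordinates are given, since no genome build is named for the expression table.

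Summed pigment cell markers, like ar, were higher in coloured tails than in the females of the same strain. Summed melanophore markers (black pigment cells) ran from 15125 to 28826 normalized counts in red tails, 1823 to 4272 in MZCS002 females, 11026 to 16194 in yellow tails, and GRZ-BELL females held 3063 to 3502. Summed xanthophore markers (yellow to red pigment cells) ran from 40539 to 98024, 1971 to 2942, 12036 to 38297 and 2327 to 3008 in the same order. Summed iridophore markers (reflecting cells) ran from 7573 to 11949, 2785 to 3209, 8339 to 16601 and 2816 to 4334. For melanophores and iridophores the ranges of red and yellow tails overlapped, and for xanthophores they did not. The highest iridophore sum was in a yellow tail. Every red tail held more ar than any yellow tail. All 3 sums were higher in each coloured tail than in any female. Averaged over the strains, 10 of 12 tested melanophore markers, 8 of 10 xanthophore markers and 6 of 11 iridophore markers were called higher in coloured tails, beside 2.72% of all entries. In that average 0 markers of these lists were called lower, but 1 iridophore marker was called lower in yellow tails than in GRZ-BELL females. The count called higher was 0 for 9 epidermal, 16 fin ray bone, 12 fibroblast and matrix, 5 muscle, 9 vessel and 2 gonad markers. It was 2 of 13 for blood markers and 1 of 7 for nerve and glia markers. Some of these lists still shifted, with median average differences of 0.54 for fin ray bone, -0.54 for vessel and -1.44 for muscle markers. In red tails against MZCS002 females, 2 of 16 fin ray bone markers and 1 of 7 nerve and glia markers were called higher. Called lower were 1 of 5 muscle markers and 1 of 7 nerve and glia markers. Of all entries, 2.71% were called higher and 1.82% lower there. In yellow tails 0 fin ray bone or muscle markers were called. Summed muscle markers were low, at 33.9 to 62.9 normalized counts in red tails and 84.9 to 459 in MZCS002 females. For the melanophore, xanthophore and iridophore lists, the members' median correlation with ar over the 12 libraries was 0.79, 0.68 and 0.63. The coefficient was above 0 for 12 of 12, 9 of 10 and 8 of 11 members, so some members ran against ar. Computed on deviations from the group means, which leave the differences between groups out, those medians were 0.14, 0.048 and 0.065. The median of all tested entries on that measure was -0.013. Over the 12 libraries, the medians of the other marker lists ran from -0.31 for muscle to 0.41 for fin ray bone, where 13 of 16 members were above 0. For the receptor chaperones the median was 0.44, with 19 of 23 above 0. Positive coefficients were thus found outside the pigment cell lists too, with lower medians. Female 2 of MZCS002, the shallowest library, had the lowest of all libraries in each of the 3 sums and the highest ar of the females in normalized counts. As CPM its ar was not the highest of the females (34.2, against 36.9 in female 3 of MZCS002). The part of pigment cell number in the ar difference was not tested.

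**Figure D5:**
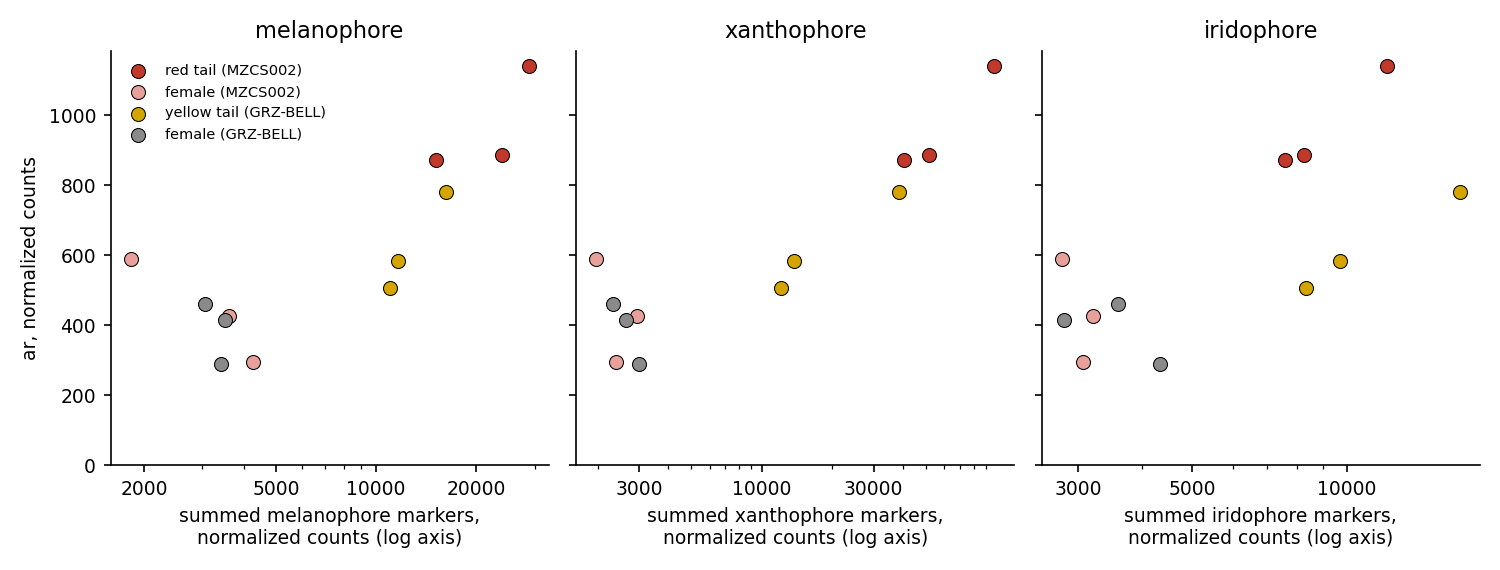
Level of ar in each library (normalized counts, up) against the summed markers of melanophores, xanthophores and iridophores (normalized counts, log axis across), coloured by group. The coloured tails lie to the right of all females in each panel and above the females of their own strain. Yellow 1 and yellow 3, at 583 and 507.1, lie below female 2 of MZCS002. The female with the highest ar in normalized counts, at 591, is the shallowest library and has the lowest sum in each panel.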

How the data were processed

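The deposited table holds a signal per transcript, read counts that the authors divided by a size factor per library, with DESeq2 per the submitters' processing notes, which also name Trimmomatic, STAR and featureCounts. Their versions, the genome build, strand setting and filters were not given in the sources used here. Values were whole multiples of 1 read in all 12 libraries (100% within 0.01 of a read), which gave back the counts, 5495553 to 17053983 reads per library; 3 reads equalled 2.04 to 9.43 normalized counts. The Poisson intervals cover counting error only, and PCR copies were not marked by molecular identifiers. The limma intervals rest on the spread between libraries.

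Samples were grouped by their titles; the series design text calls the 3 replicates per group biological. The log2(value + 1) was fitted with limma 3.58.1 (R 4.3.3; moderated variances with a trend on intensity) for the 15170 entries with a mean of at least 10, with group as the only term and Benjamini-Hochberg adjustment at 0.05 over all of them. The scripts were tested on simulated data. The exact permutation test for ar was two-sided. edgeR 4.0.16 and DESeq2 1.42.0 on the recovered counts, other scalings, pseudocounts, filters, array weights, a replicate block and each library left out were alternatives. Replicate numbers were not taken as pairs, since the series design text gives no pairing.

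Names came from the RefSeq table (14145 entries matched, 10617 with a symbol), and reads of closely similar gene copies may be divided among entries. Genes named were ar, all tested receptors, the members of each androgen list called between tails and females, the 6 most and 4 least correlated genes, and the 5 most alike in deviations and 4 in group means. Members, lists and rules were chosen with earlier results of these data known.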

Additional observations from a re-analysis of the deposited data

How the results depend on the processing

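The average ar difference between coloured tails and females was called in all 9 other limma settings with every library (0.89 to 1.18, adjusted p 4.34e-05 to 0.0319), by edgeR (0.92, adjusted p = 0.0275) and by DESeq2 (0.91, adjusted p = 0.0015), and the exact permutation test on unlogged values gave a difference of 382 (p = 0.005). Leaving out libraries gave 0.81 to 1.06. The MZCS002 call failed in the fit of its own 2 groups (1.19, limma adjusted p = 0.184), and ran from 0.93 to 1.43 with a library left out; edgeR gave an adjusted p of 0.0481 and DESeq2 0.0065. Array weights, from 0.109 for female 2 of MZCS002 to 6.47 for red 2, added calls for yellow tails against females (0.60, limma adjusted p = 0.0490), red against yellow tails (0.90, adjusted p = 4.29e-04) and the interaction (1.16, adjusted p = 0.0098), and called 5159 of all entries in MZCS002 where the equal-weight fit called 687. The difference between the female groups (0.14; -0.10 to 0.40 with a library left out) turned negative with equal totals (-0.069), with array weights (-0.26), without female 2 of MZCS002 (-0.105) and without female 1 of GRZ-BELL (-0.056). With equal totals the median of all entries in MZCS002 was 0.25 (0.014 as deposited), beside an ar difference of 1.43.

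Replicate numbers were not taken as pairs. Deviations of same-numbered libraries correlated at -0.31 to 0.17 (median -0.00014), and those of differently numbered libraries at -0.37 to 0.38 (median 0.013). These values show no closer likeness by number, but they cannot exclude a pairing. With a replicate block ar differed by 1.19 in MZCS002 (limma adjusted p = 0.0376) and 0.94 on average (adjusted p = 0.0184), and 347 entries were called in MZCS002. Of the androgen pathway genes called in MZCS002 (7 in all), the block left 4, the fit of 2 groups 2, DESeq2 called 21 and array weights 48, and 2 to 12 were called with a library left out. For GRZ-BELL (3), DESeq2 called 8, array weights 18, the fit of 2 groups 6 (546 of all entries), and up to 5 were called without female 2 of MZCS002. For the average (5), DESeq2 called 14, array weights 31, and up to 10 were called without that library. DESeq2 called 1757 of all entries in MZCS002 and 1478 on average. Array weights called 5159 of all entries in MZCS002, 2408 in GRZ-BELL and 4219 on average. The fit of 2 groups called 112 in MZCS002. The equal-weight fit of all libraries called 687, 279 and 584 of the 15170 entries in MZCS002, in GRZ-BELL and on average. DESeq2 and array weights raised the calls among all entries in each of these comparisons, GRZ-BELL included. In MZCS002 the block and the fit of 2 groups lowered them. In these settings the member counts thus moved in the same direction as the background, and whether they moved further than it was not tested. Counts of all entries in the fits with a library left out are not given here. The causes of these shifts were not tested. Counting depth limits the synthesis genes with means under 10, for which no test was made.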

Other observations

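The deviations of each library from its group mean were correlated with those of ar over the 12 libraries, which takes the differences between groups out. The 5 named genes with the highest coefficients were ccnf, a cyclin of the G2 and mitotic phases (r = 0.95), dpy19l3 (0.95), plk1, a kinase of mitotic entry (0.95), melk, a mitotic-phase kinase (0.94), and rbms3, an RNA-binding protein (0.94). The kinase plk1 held 372, 387 and 278 normalized counts in red tails, 190, 635 and 358 in MZCS002 females, 66.2, 149 and 46.7 in yellow tails and 45.8, 89.96 and 145 in GRZ-BELL females. Within each group the order of the libraries was the same for plk1 and for ar, and in both coloured groups replicate 2 was highest. The gene plk1 was picked for its likeness to ar in these same libraries.

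A list of 45 cell cycle symbols was then drawn up after these values had been seen, and it supports nothing on its own. Of its 33 tested members, 32 had a positive coefficient, with a median of 0.70, beside a median of -0.013 over all tested entries. With each group left out in turn the median ran from 0.62 to 0.77. That reuses the libraries that prompted the list, which includes plk1 itself, and is no separate check. Between coloured tails and females averaged over the strains, 0 of the 33 were called, against 3.85% of all entries. Red tails exceeded yellow tails in 13 (median difference 1.96), where 3.85% of all entries were called higher. The females of MZCS002 lay the same way against those of GRZ-BELL (median 1.25, 1 called higher), where 1.74% of all entries were called. Female 2 of MZCS002, the shallowest library, was far above the other females of its strain in some members. For cenpf it held 8854 normalized counts against 342 and 498. In other members it was not, as in ccne1 (34.6 against 94.3 and 119). Over tails and females together, 17 were called higher in MZCS002 and 0 lower, where 7.86% of all entries were called in either direction. The points share libraries, depth and size factors, and what lies behind the shared variation was not tested.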
